A study of Mus musculus with 8 samples.

Results

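Feedback inhibitors of Wnt signalling were examined in Paneth cells sorted from the small intestine of mice that carried stabilized β-catenin, with or without a functional copy of Mll1. The set held 10 genes, Notum, Wif1, Dkk2, Dkk3, Apcdd1, Nkd1, Nkd2, Axin2, Znrf3 and Rnf43, of the 53801 genes in the count table. They are secreted Wnt antagonists or negative regulators induced by β-catenin, and they were selected on their role with their counts in these libraries, knockout against control, already known. Their genotype differences are therefore given as a description, without p-values. Where inhibitors past the limits of the fit over all genes are counted, the count is likewise descriptive and is not evidence for a difference. Of the 10 genes, 7 passed the filter on low counts and were fitted together with all 13439 genes that passed. Dkk2, Apcdd1 and Nkd2 did not pass, and Notum and Wif1 passed only through their level in the knockouts.

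The libraries came from 4 β-cat GOF; Mll1+/- mice, called controls, and 4 β-cat GOF; Mll1-/- mice, called knockouts. Both groups carried the same β-catenin gain-of-function allele, in which deletion of exon 3 stabilizes the protein. By genotype, recombination removes 1 allele of Mll1 in the controls and both in the knockouts, so neither group was a wild-type control. Recombination was driven by Lgr5-EGFP-IRES-CreERT2, a tamoxifen-inducible Cre expressed from the Lgr5 promoter in crypt base stem cells. It was induced in young mice with 1 mg tamoxifen on 3 days, and the cells were taken 10 d later. The sort took viable EpCAM+ Cd24+ cells, with an antibody against CD45 in the stain and no recombination marker. The study describes recombination with this Cre as a mosaic, with non-recombined crypts beside mutant ones, so the sorted cells may include non-recombined ones. It also stained crypts for Mll1 and reported Mll1 deficiency in all crypt cells, Paneth cells included, at the time of sorting. That staining was not analysed here. The labels and the results text of the study give the β-cat GOF genotype, while its methods paragraph on the sorting names Mll1 flox littermates without that allele. The labels do not say which mouse each library came from, and the numbers in the labels of control 4 and knockout 4 are identical, so no pairing was made from them. The p-values measure the spread between these libraries.

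In the Wnt/β-catenin pathway, Wnt ligands bind Frizzled and Lrp5 or Lrp6 receptors and thereby spare β-catenin from a cytoplasmic destruction complex, so that it can activate Tcf/Lef target genes. Some of these targets encode inhibitors of the pathway itself, which form a negative feedback at the level of the ligand, the receptor or the destruction complex. In the intestine, Wnt activity maintains the stem cells at the crypt base and drives the maturation of the neighbouring Paneth cells. Stabilized β-catenin acts below the ligand, the receptor and Axin2.

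Promoter sequences are shown for 3 of the intracellular regulators, the paralogs Nkd1 and Nkd2 and the β-catenin target Axin2, because Nkd1 and Nkd2 differed in their readout and because the CXXC domain of Mll1 is known to bind unmethylated CpG. DNA methylation and Mll1 binding were not measured here, and a link between CG number and readout was not tested. Each is the run of 250 bases just before a RefSeq transcription start in GRCm38.p6, 5′ to 3′ on the strand of the gene, with CG dinucleotides in capitals. The windows are chr8:88527383-88527632 (plus strand) for Nkd1, chr13:73847632-73847881 (minus strand) for Nkd2 and chr11:108920099-108920348 (plus strand) for Axin2. None of them overlaps an exon of the count annotation.
Nkd1: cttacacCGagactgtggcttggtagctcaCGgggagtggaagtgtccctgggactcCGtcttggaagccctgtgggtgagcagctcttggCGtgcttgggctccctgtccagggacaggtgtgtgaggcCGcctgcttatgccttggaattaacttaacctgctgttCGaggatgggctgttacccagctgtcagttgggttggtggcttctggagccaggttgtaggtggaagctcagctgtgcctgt
Nkd2: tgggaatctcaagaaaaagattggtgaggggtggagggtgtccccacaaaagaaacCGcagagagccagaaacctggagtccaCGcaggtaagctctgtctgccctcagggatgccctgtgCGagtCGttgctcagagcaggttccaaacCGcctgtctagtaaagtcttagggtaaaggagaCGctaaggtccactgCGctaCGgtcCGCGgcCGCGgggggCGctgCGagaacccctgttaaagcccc
Axin2: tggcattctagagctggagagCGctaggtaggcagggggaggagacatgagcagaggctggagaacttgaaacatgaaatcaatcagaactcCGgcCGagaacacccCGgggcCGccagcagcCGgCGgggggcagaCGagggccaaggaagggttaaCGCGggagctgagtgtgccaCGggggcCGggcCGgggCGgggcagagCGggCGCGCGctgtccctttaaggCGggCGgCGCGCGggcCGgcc
The number of CG dinucleotides was 6 for Nkd1, 14 for Nkd2 and 24 for Axin2, and the median over 32851 RefSeq windows of this length was 6. The Nkd1 window belongs to a start inside the gene as counted here, which begins at 88521354, so it is not the only annotated start. RefSeq windows were examined for 6 of the 10 genes, 7 windows in all, because Rnf43 has 2. No window was matched for Notum, Dkk3, Apcdd1 and Znrf3. Wif1 had 21 CG dinucleotides, Dkk2 had 7, and the windows of Rnf43 had 8 and 2. The Tcf/Lef motif, searched on both strands as NNCAAAG with A or T at each N, was in 0 of the 7 windows and in 14.8% of all windows (4874 of 32851). This says only that these letters are not in these 250 bases.

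Totals on genes lay between 13557350 and 14380240 counts in the controls and between 13037832 and 13554171 in the knockouts. Levels are given as normalized CPM, counts relative to the library size after scaling by edgeR's TMM factors, where 3 counts correspond to between 0.173 and 0.354 normalized CPM. Knockout 3 stood apart, with 19662 genes detected by at least 1 count, where the other 7 libraries had 22623 to 26074, and a TMM factor of 0.632, the lowest of all. It was the lowest knockout for 7 of the 10 inhibitors. Kmt2a, which encodes Mll1, received 268 to 719 counts in the controls and 328 to 523 in the knockouts (log2 fold change −0.06 with a standard error, SE, of 0.24, for which edgeR's quasi-likelihood test gave an adjusted p of 0.995). This count sums all exons and does not show the deletion. Ctnnb1, which encodes β-catenin, had 11.6, 15.5, 14.9 and 24.1 normalized CPM among the controls and 27.4, 26.6, 15.2 and 33 in the knockouts, so that knockout 3 lay among the controls and the other knockouts above them. It had a log2 fold change of 0.63 (SE 0.28, adjusted p = 0.68 from edgeR). The labelled cell type was borne out by its markers: 18 Paneth cell genes such as Lyz1 and Mmp7 took 43.2% to 62.4% of the counts in the controls and 46.4% to 65% in the knockouts. In sorted populations, fewer cells of a type and less RNA per cell cannot be told apart.

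All 7 fitted inhibitors were higher in the knockouts than in the controls, with log2 fold changes from 0.58 (Znrf3) to 4.89 (Notum) and a median of 2.54. The median was 0.90 without Notum and Wif1, which entered the fit through the knockouts, and 0.01 over all genes tested. Notum, Wif1, Nkd1 and Dkk3 were 5.82-fold to 29.6-fold higher, whereas Axin2, Rnf43 and Znrf3 were 1.49-fold to 1.87-fold higher. For 4 inhibitors, Notum, Wif1, Nkd1 and Rnf43, every knockout lay above every control, as did 2.59% of all genes tested. Calls required both an adjusted p no larger than 0.05 and an absolute log2 fold change no smaller than 0.5. Notum and Nkd1 passed these limits, 2 of the 7 fitted, where 0.156% of all genes tested were called higher in the knockouts. Wif1 was added at 10% false discovery rate, making 3, where 0.231% of all genes were higher. Without knockout 3 there were 4 inhibitors past the main limits, Dkk3 and Wif1 being added, where 0.944% of all genes tested were called higher in that fit, 133 against 21 with all libraries. Nothing is read from these counts, since the genes were chosen with this contrast known.

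**Figure D1:**
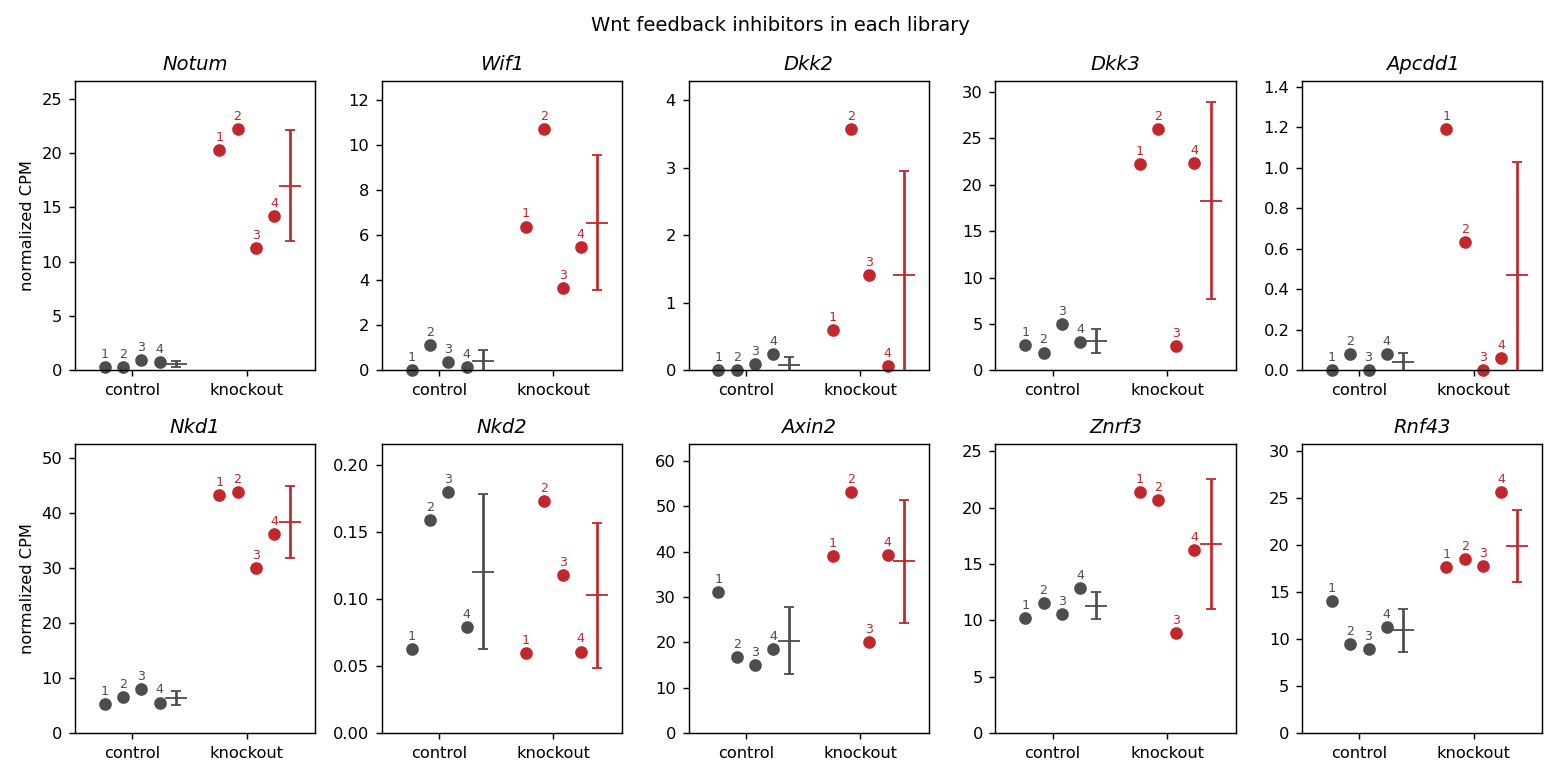
Normalized CPM (vertical axes, each from 0) of the 10 inhibitors in the 4 controls (grey) and 4 knockouts (red), with the replicate number above each point and the mean ± SD at the right of each group, cut at 0 where the SD reaches below it. The knockouts of Notum, Wif1, Nkd1 and Rnf43 lie above all controls, knockout 3 falls among the controls for Dkk3 and Axin2 and below them for Znrf3, and Nkd2 stays at or under 0.18.

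Among the secreted inhibitors, the widest difference was that of Notum (ENSMUSG00000042988, chr11:120653788-120661175, minus strand), a carboxylesterase that removes the lipid which Wnt ligands need to bind Frizzled. Its raw counts were 5, 4, 10 and 10 for controls 1 to 4 and 341, 386, 96 and 233 for knockouts 1 to 4. On the normalized scale these were 0.314, 0.318, 0.9 and 0.792 CPM among the controls and 20.3, 22.2, 11.3 and 14.2 CPM in the knockouts. Notum was thus close to the limit of detection in every control and well above it in every knockout, and the groups did not overlap. The means were 0.581 ± 0.309 and 17.0 ± 5.12 normalized CPM (SD, n = 4 per group), and the log2 fold change was 4.89 (SE 0.40), or 29.6-fold. It was 5.04 without knockout 3 and lay between 4.67 and 5.16 with each library left out in turn. Of the exon bases of Notum, 29.4% are shared with Notumos and 8.72% with Myadml2os, both on the other strand. The strand setting of the counting is not given in the sources used here, so reads from this overlap cannot be assigned to a strand. Notumos itself received 0, 0, 1 and 1 counts in the controls and 39, 25, 9 and 7 in the knockouts, and Myadml2os at most 1 count in a library.

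Wif1 (ENSMUSG00000020218, chr10:121033960-121100650) encodes a secreted protein that binds Wnt ligands. Its counts were 0, 14, 4 and 2 for controls 1 to 4 and 107, 186, 31 and 90 in knockouts 1 to 4, or at most 1.11 normalized CPM in a control and at least 3.65 in a knockout. The groups did not overlap, and 14 of the 20 control counts came from control 2. The means were 0.408 ± 0.493 and 6.55 ± 3.00 normalized CPM (SD, n = 4 per group), and the log2 fold change was 4.03 (SE 0.75). Without control 2 it was 5.30, and without control 1, which had no count, it was 3.57, and without knockout 3 it was 4.23.

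The Dickkopf family was represented by Dkk2, which binds the co-receptors Lrp5 and Lrp6, and by Dkk3, a divergent member of the family. Dkk3 (ENSMUSG00000030772, chr7:112116017-112159057) had 2.77, 1.91, 4.95 and 3.09 normalized CPM in controls 1 to 4 and 22.2, 26.0, 2.59 and 22.4 in knockouts 1 to 4. Knockouts 1, 2 and 4 lay far above all controls, whereas knockout 3, with 22 counts, lay within the range of the controls. The log2 fold change was 2.54 (SE 0.56) with all libraries and 2.89 without knockout 3. Dkk2 (ENSMUSG00000028031, chr3:132085292-132180304) received 0, 0, 1 and 3 counts in the controls and 10, 62, 12 and 1 in the knockouts. It was detected above the controls in knockouts 1 to 3, while knockout 4 was within the range of the controls. With the counts pooled, 4 against 85, the ratio of knockouts to controls was 18.8 (95% exact counting interval 7.07 to 70.5), which fell to 7.20 without knockout 2 and rose to 57.0 without control 4. The interval covers counting error only, and reads that are PCR copies were counted separately.

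Apcdd1 (ENSMUSG00000071847, chr18:62922327-62953195) encodes a membrane glycoprotein that inhibits Wnt signalling at the cell surface. It received 0, 1, 0 and 1 counts in the controls and 20, 11, 0 and 1 in the knockouts, so that only knockouts 1 and 2 exceeded 1 count. The pooled ratio was 14.1 (95% exact counting interval 3.61 to 122), 7.41 without knockout 1 and 21.5 without control 2. As for Dkk2, the interval covers counting error only and not the spread between libraries. At this depth Apcdd1 was not detectable above the controls in knockouts 3 and 4.

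Nkd1 and Nkd2 are the mammalian Naked cuticle proteins, which bind Dishevelled in the cytoplasm. Nkd1 (ENSMUSG00000031661, chr8:88521354-88594884, plus strand) had raw counts of 85, 82, 89 and 70 for controls 1 to 4 and 726, 762, 255 and 597 in knockouts 1 to 4. After normalization these were 5.34, 6.53, 8.01 and 5.54 CPM among the controls and 43.3, 43.9, 30.0 and 36.3 CPM in the knockouts. Every knockout, knockout 3 included, lay more than 3-fold above every control. The means were 6.36 ± 1.22 and 38.4 ± 6.53 normalized CPM (SD, n = 4 per group), and the log2 fold change was 2.60 (SE 0.21), or 6.05-fold. The range with each library left out was 2.53 to 2.72, the narrowest of the 7 inhibitors.

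Its paralog Nkd2 (ENSMUSG00000021567, chr13:73818534-73847631) received at most 3 counts in any library, 6 in all controls and 6 in all knockouts. The pooled ratio was 0.884 (95% exact counting interval 0.236 to 3.31), so a difference within that interval was not detectable at this depth. Of the pair, Nkd1 was thus the member measured well above the limit of detection in these cells.

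Axin2 (ENSMUSG00000000142, chr11:108920349-108950783, plus strand), a scaffold of the β-catenin destruction complex and a widely used Wnt target gene, had 31.2, 16.7, 14.9 and 18.5 normalized CPM in controls 1 to 4. It had 39.0, 53.2, 20.1 and 39.2 normalized CPM in knockouts 1 to 4. Control 1 was high for its group and knockout 3 low for its group, and the groups overlapped through these libraries. The means were 20.3 ± 7.43 and 37.9 ± 13.6 normalized CPM (SD, n = 4 per group), and the log2 fold change was 0.90 (SE 0.31). It was 1.10 without knockout 3, 1.19 without control 1 and 0.69 without knockout 2. A share of 3.8% of its exon bases belongs also to Gm11670 on the other strand, which received at most 9 counts in a library.

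Znrf3 and Rnf43 are transmembrane E3 ubiquitin ligases that remove Frizzled from the cell surface and are themselves cleared when R-spondin engages Lgr4 or Lgr5. Rnf43 (ENSMUSG00000034177, chr11:87662722-87735539) had 14, 9.47, 8.91 and 11.2 normalized CPM among the controls and 17.6, 18.5, 17.7 and 25.6 in the knockouts. The groups did not overlap, and knockout 3 was level with knockouts 1 and 2. The log2 fold change was 0.87 (SE 0.22). Znrf3 (ENSMUSG00000041961, chr11:5276324-5444847) had 10.2, 11.5, 10.6 and 12.9 normalized CPM among the controls and 21.4, 20.7, 8.84 and 16.2 in the knockouts. Knockouts 1, 2 and 4 lay above all controls, and knockout 3 lay below all of them. The log2 fold change was 0.58 (SE 0.26), and 0.78 without knockout 3.

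**Figure D2:**
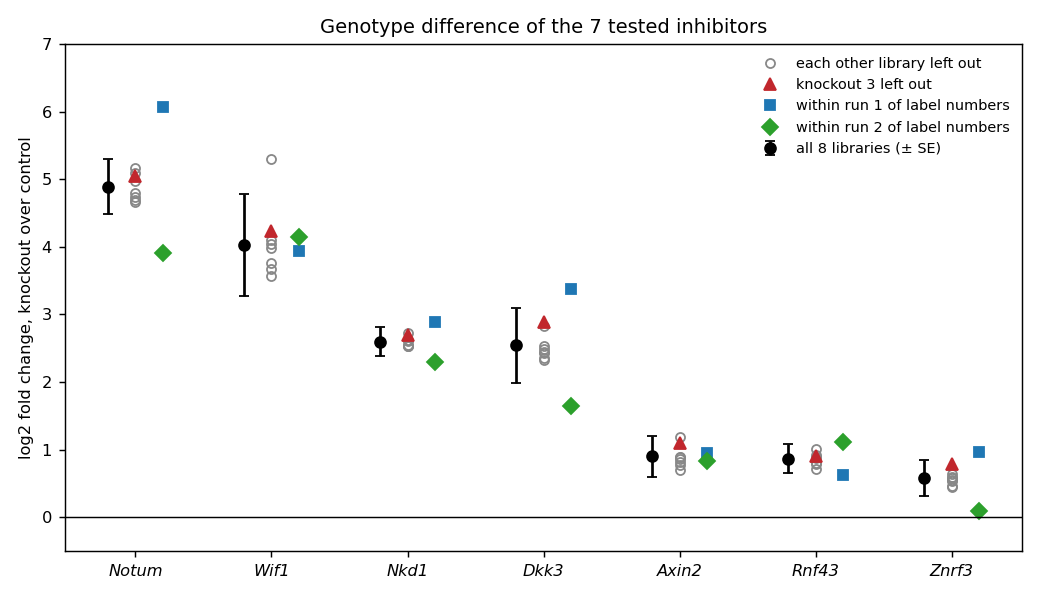
Log2 fold change, knockout over control, of the 7 fitted inhibitors from all 8 libraries (black, ± standard error), with each library left out in turn (open grey; red triangle, knockout 3) and from the means within each run of label numbers (blue, run 1; green, run 2). All values lie above 0, from 0.09 for Znrf3 within run 2 to 6.07 for Notum within run 1.

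The numbers in the sample labels form 2 runs, of which the first holds controls 1 and 2 with knockouts 1 and 2 and the second the other libraries. What the runs stand for is not stated. Notum had a log2 ratio of means of 6.07 within run 1 and 3.91 within run 2, Nkd1 had 2.88 and 2.29, and Wif1 had 3.94 and 4.14. Each of these was higher in every knockout than in every control of its run. Dkk3 had 3.37 and 1.64, Axin2 0.94 and 0.83, Rnf43 0.63 and 1.11, and Znrf3 0.96 and 0.09. For Dkk3 and Znrf3 the run that includes knockout 3 overlapped between genotypes, and the other run did not. The difference between the runs was not tested.

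Per kb of exon, the order of the inhibitors differed between the genotypes. In the controls, the mean levels in normalized CPM per kb were 3.69 for Axin2, 1.66 for Rnf43, 1.43 for Znrf3, 1.39 for Nkd1 and 0.946 for Dkk3. Notum followed at 0.241 and Wif1 at 0.168, and Nkd2, Dkk2 and Apcdd1 lay under 0.03. Among neighbours in this order, only Axin2 and Rnf43 and then Dkk3 and Notum had ranges that did not overlap. In the knockouts, the mean levels per kb were 8.42 for Nkd1, 7.06 for Notum, 6.89 for Axin2, 5.46 for Dkk3, 3.03 for Rnf43, 2.70 for Wif1 and 2.13 for Znrf3. Dkk2, Apcdd1 and Nkd2 again came last, at 0.381, 0.169 and 0.021. The ranges of neighbours overlapped throughout in the knockouts, except between Znrf3 and Dkk2. Nkd1 was above Notum in 4 of 4 knockouts and Notum above Axin2 in 2 of 4, whereas Axin2 exceeded Rnf43 in 4 of 4 controls.

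**Figure D3:**
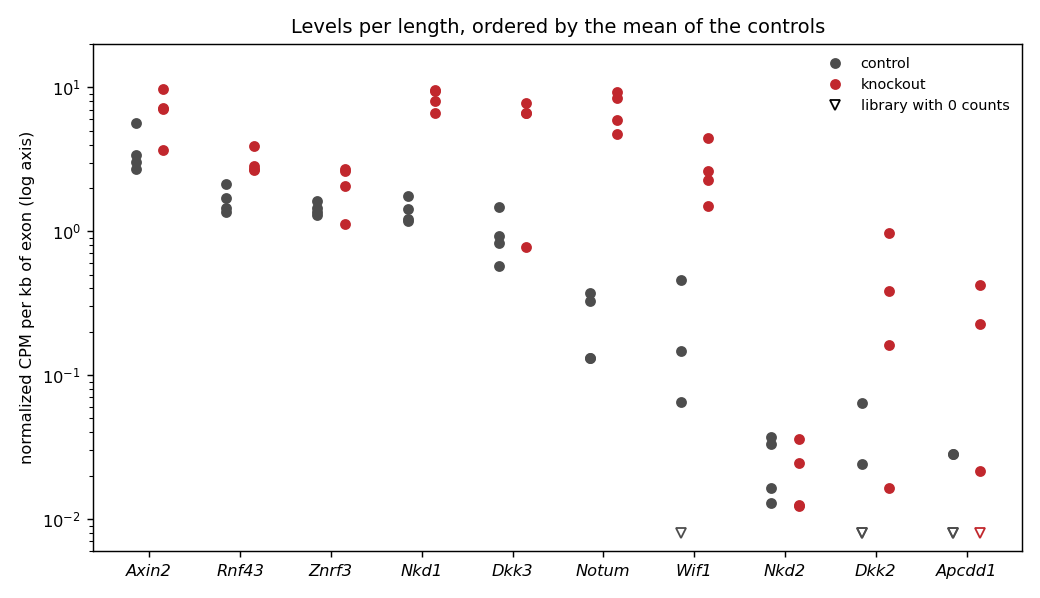
Normalized CPM per kb of exon (log axis) of the 10 inhibitors in each control (grey) and knockout (red), ordered by the mean of the controls; open triangles at the bottom mark libraries with 0 counts. Axin2, Rnf43 and Znrf3 lead in the controls, and Nkd1 and Notum lead in the knockouts.

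Summed over the 10 genes, the inhibitors amounted to 63.9, 47.8, 48.9 and 52.6 normalized CPM in controls 1 to 4 and to 172, 199.7, 95.8 and 159.6 in knockouts 1 to 4. Axin2, Rnf43 and Znrf3 made up 70.3% to 86.7% of this sum in the controls and 45.4% to 50.8% in the knockouts. Knockout 3 had the smallest sum of the knockouts, and its share from these 3 genes, 48.7%, lay within the range of the other knockouts.

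Other genes of the Wnt pathway, 105 in 5 lists written with earlier results of these data known, were set beside the feedback inhibitors. Of these, 62 were tested and 0 were called by edgeR in either direction, where 0.186% of all genes were called. At that share, 0 calls among 62 genes cannot tell these lists from all genes. At an unadjusted p under 0.05 there were 10, 8 with higher and 2 with lower values in the knockouts, where 6.88% of all genes passed. The 8 include Fzd1, which passed the filter on low counts through its level in the knockouts. DESeq2 called 2 of the 62, Prox1 and Tnfrsf19, both higher, where it called 0.745% of all genes higher. Without knockout 3, edgeR called 5 of the lists, Prox1, Tnfrsf19, Igfbp4, Tcf7 and Wnt6, all higher, where 0.944% of all genes were called higher, and of these Tcf7 and Wnt6 are named after their values were seen. Wnt6 is not among the 62 and entered that fit through knockouts 1, 2 and 4, with at most 0.159 normalized CPM in a control.

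The list of other extracellular antagonists held 19 genes, among them the other Dickkopf genes, the Sfrp family and Sost, and 5 of them were tested, with a median log2 fold change of 0.25. Igfbp4, a secreted binding protein that can also block Wnt receptors, was the one with an unadjusted p under 0.05 and had the highest level per length of the list. Its level was 18.5, 13.1, 19.5 and 13.3 normalized CPM among the controls and 28.1, 47.3, 15.2 and 29.1 in the knockouts. Knockout 3 again lay among the controls, and the log2 fold change of 0.90 (SE 0.30) had an adjusted p of 0.502 in edgeR. Without knockout 3 it was 1.11 (SE 0.23, adjusted p = 0.0368 in edgeR).

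Among 24 other intracellular negative regulators, which included Axin1, Apc, Gsk3b and the Tle corepressors, 21 were tested, the median log2 fold change was 0.06 and 0 had an unadjusted p under 0.05. Csnk1a1, a casein kinase that phosphorylates β-catenin and the highest of this list per length, had 123 ± 10.7 normalized CPM among the controls and 129 ± 10.2 among the knockouts (SD, n = 4 per group). Its log2 fold change was 0.07 (SE 0.15). Of 22 Frizzled, Lrp, Ryk, Ror, Lgr and R-spondin genes, 14 were tested, with a median of 0.06. Lgr4, the R-spondin receptor with the highest level per length, had a log2 fold change of −0.20 (SE 0.21, adjusted p = 0.943 in edgeR). Fzd1, a Frizzled receptor, had at most 0.692 normalized CPM in a control and 1.19, 0.922, 5.77 and 2.19 in knockouts 1 to 4, and its log2 fold change was 2.45 (SE 0.80). It passed the filter on low counts through its level in the knockouts, so this is a description without a p-value, and it was not called. Knockout 3 was the highest library for Fzd1, and without it the log2 fold change was 1.67.

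Wnt ligands and their secretion factors were 21 genes, of which 4 were tested, with a median log2 fold change of −0.55. Wnt3, the ligand that Paneth cells supply to stem cells, had 25.7 ± 5.05 normalized CPM among the controls and 20.4 ± 4.72 among the knockouts (SD, n = 4 per group), for a log2 fold change of −0.34 (SE 0.21). Its adjusted p was 0.869 in edgeR. Wls, which carries Wnt ligands to the cell surface, had a log2 fold change of 0.44 (SE 0.20, adjusted p = 0.702 in edgeR).

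The list of other β-catenin targets held 20 genes, of which 19 were tested, with a median log2 fold change of 0.20, and 5 were higher and 2 lower at an unadjusted p under 0.05. Prox1, a homeobox transcription factor, had 15.7, 19.3, 27.4 and 14.7 normalized CPM among the controls and 123, 112, 24.4 and 73.6 in the knockouts. Knockouts 1, 2 and 4 lay above all controls and knockout 3 among them. The log2 fold change was 2.12 (SE 0.42), with an adjusted p of 0.101 in edgeR, and without knockout 3 it was 2.42 with an adjusted p of 0.000303 in edgeR. Tnfrsf19, a receptor also known as Troy, had a log2 fold change of 1.36 (SE 0.32, adjusted p = 0.23 in edgeR), or 1.61 without knockout 3 (adjusted p = 0.00187 in edgeR), and Sp5, a transcription factor of the Sp family, had 1.62 (SE 0.53, adjusted p = 0.48 in edgeR). The other 2 with higher values were Lef1 and Tcf7, and those with lower values were Slc12a2 and Ascl2, all 4 named after their values were seen. The log2 fold changes were 1.10 for Lef1, 1.13 for Tcf7, −0.85 for Slc12a2 and −0.82 for Ascl2. Every knockout lay above every control for Lef1 and below every control for Slc12a2, while the groups overlapped for Tcf7 and Ascl2. Mmp7, a matrix metalloproteinase of Paneth cell granules and the highest of the list per length, had a log2 fold change of −0.09 (SE 0.39, adjusted p = 0.995 in edgeR).

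**Figure D4:**
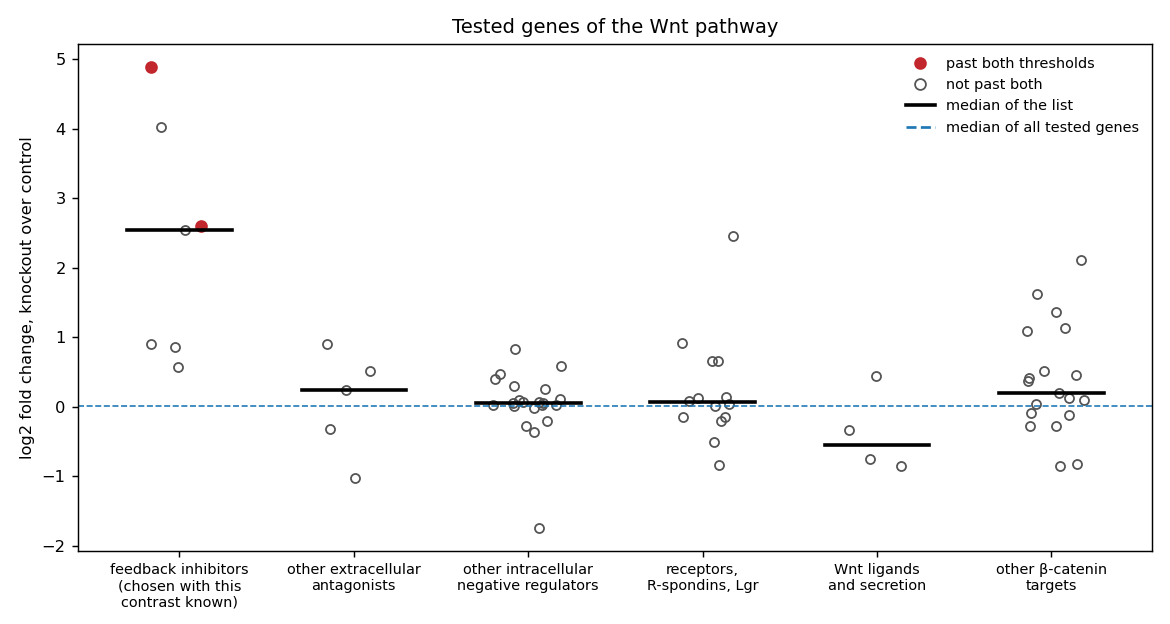
Log2 fold change, knockout over control, of the tested genes in each Wnt list (points; filled red, past both limits) with the median of each list (black bar) and of all tested genes (dashed line). The 7 fitted inhibitors, chosen with this contrast known, have a median of 2.54, or 0.90 without Notum and Wif1, and the medians of the other lists lie between −0.55 and 0.25.

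The genes whose profile over the 8 libraries lay nearest to that of Notum were Nkd1, S100a6, Rbms1, Ptn and Spock2, at Euclidean distances of 0.304, 0.337, 0.419, 0.432 and 0.481 on scaled log2(normalized CPM + 1) values. The median distance from Notum over all genes tested was 3.78. For Nkd1 the nearest were Notum, Ptn, S100a6, Spock2 and H19, at 0.304, 0.421, 0.447, 0.523 and 0.581. Notum and Nkd1 were each other's nearest gene. These distances reflect the genotype difference as well as the spread within the groups, and the libraries share their preparation.

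Markers of other cell types were set beside these differences. Of 17 stromal markers 2 passed the filter, the sum over the list was 6.65 to 11 normalized CPM among the controls and 7.08 to 11 in the knockouts, and Col1a1, Col1a2, Pdgfra and Dcn lay under 0.61 in every library, with Sox10 at 0 throughout. Of 13 immune markers 3 were tested, and the sum over the list was 145 to 473 in the controls and 172 to 629 in the knockouts, most of it from Lyz2. Lyz2 was lowest in control 1 and highest in knockout 3, as was the Paneth cell gene Lyz1. Cd68, Itgam, Adgre1 and Csf1r lay at or under 1.85 in every library, and Cd3e and Cd79a under 0.1. Ptprc, which encodes the CD45 of the stain, had 12.6, 8.44, 3.87 and 2.93 in controls 1 to 4 and 11, 9.04, 1.3 and 1.95 in knockouts 1 to 4, higher in the first run of label numbers for both genotypes. Of 12 enteroendocrine markers, 6 had lower values in the knockouts with an unadjusted p under 0.05, which 6.88% of all genes passed in either direction, the smallest adjusted p in edgeR being 0.0629 for Neurod1, with a median log2 fold change of −1.42. The sum over this list was 897 to 1910 normalized CPM among the controls and 70.7 to 1860 in the knockouts, where knockout 3 had the 1860, of which Gip gave 1690. In knockout 3 Neurod1 was at 5.42, Chga at 5.54, Sst at 0.118 and Neurog3 and Cck at 0. Chgb, at 123 there, lay within the range of the controls, and Syp, at 4.01, was highest in that library. Tuft cell markers, 7 of 8 tested with 2 lower at an unadjusted p under 0.05, had a median log2 fold change of −0.94 and sums of 198 to 463 in the controls and 85.9 to 297 in the knockouts. Enterocyte markers, 6 of 9 tested with 3 lower at an unadjusted p under 0.05, had a median of −0.83 and sums of 161 to 357 and 84.2 to 254. The medians of 10 goblet and 9 stem cell markers were 0.07 and −0.08, but members went both ways. Among goblet cell markers 2 had lower values at an unadjusted p under 0.05, Fcgbp and Zg16, and the sums were 1980 to 4640 in the controls and 1830 to 4420 in the knockouts. Among stem cell markers, 3 had lower values at that limit, Olfm4, Slc12a2 and Ascl2, and 1 had higher values, Axin2. Nothing is read from the latter, since Axin2 is an inhibitor chosen with this contrast known. The stem cell sums were 764 to 1600 in the controls and 326 to 1030 in the knockouts, where knockout 3 had the 326. Fcgbp, Zg16, Olfm4, Slc12a2 and Ascl2 are named after their values were seen. The part of the enteroendocrine, tuft, enterocyte, goblet and stem cell markers in the differences of the inhibitors was not tested.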

How the data were processed

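RNA was profiled in 8 libraries of sorted Paneth cells, 4 per genotype, grouped by the genotype in their labels. The authors aligned the reads to mm10 with GSNAP and deposited raw counts of uniquely mapped reads per gene (featureCounts 1.6.3 and bcl2fastq 2.19.1 per the submitters' processing notes, Ensembl annotation), without normalization or removal of PCR copies. The deposited table also gives the exon length of each gene, used for levels per kb. The strand setting is not given in the sources used here. The 92 spike-in rows were left out, and symbols were matched for 53620 of 53801 genes.

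Counts were analysed in R 4.3.3 with edgeR 4.0.16: TMM factors, filterByExpr (minimum count 10, minimum total 15), robust quasi-likelihood fits with genotype as the only term, and Benjamini-Hochberg adjustment over all 13439 tested genes. Standard errors were approximated as the log2 fold change divided by the square root of F. The common biological coefficient of variation was 0.376. DESeq2 1.42.0, the study's tool, and limma 3.58.1, as voom with quality weights, were alternatives, with other scalings, filters, a block for the run of label numbers, and each library left out in turn. Genes that failed the filter were given as pooled ratios with exact binomial counting intervals. No pair of libraries agreed within sampling noise (smallest chi-square per degree of freedom 10.8). The functions were tested on simulated data.

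The inhibitors and the gene lists were chosen with earlier results of these data known. The genes named are all 10 inhibitors, genes overlapping them, called genes of the other Wnt lists, up to 3 per list with the largest change among those with an unadjusted p under 0.05, the highest gene of each list per length, the 5 nearest profiles to Notum and Nkd1, the targeted genes and the markers by list. Nearest profiles used log2(normalized CPM + 1), scaled over the libraries. Promoter windows are from RefSeq, GRCm38.p6.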

Additional observations from a re-analysis of the deposited data

Results flagged for a closer look

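Within groups of 4 libraries, the gap between the highest or lowest library and its nearest neighbour was compared with the range of the group, for 10 inhibitors in 2 groups. In 2 of these 20 groups 1 library was set apart, where chance at 1 in 20 gives 1. For Dkk3, knockout 3 had 2.59 normalized CPM and its nearest neighbour 22.2, a gap of 0.837 of the range. For Rnf43, knockout 4 had 25.6 normalized CPM and its nearest neighbour 18.5, a gap of 0.878 of the range.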

How the results depend on the processing

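All 110 recomputed log2 fold changes of the 7 fitted inhibitors were positive, and 6 moved by more than the spread between replicates: Wif1 without control 2 (5.30), Notum within each run of label numbers (6.07 and 3.91), Nkd1 within each run (2.88 and 2.29) and Znrf3 within run 2 (0.09). The number of inhibitors called, 2 with edgeR, was 6 without a filter on low counts (0.597% of all genes tested were higher there), 1 of 5 fitted with at least 10 counts in every library (Nkd1, with Notum and Wif1 not fitted; 0.0908%), 5 with DESeq2's Wald test (0.745%), 5 with limma-voom with quality weights (0.603%), and between 2 and 4 with each library left out, with 4 reached without knockout 3 (Notum, Nkd1, Wif1 and Dkk3). Of the other Wnt genes, 0 with edgeR, 8 were called without a filter, 2 with DESeq2, 3 with weighted limma-voom and between 0 and 5 with each library left out, where the 5 were reached without knockout 3. Over all genes, 25 were called, 290 without a filter, 13 with at least 10 counts in every library, 138 with DESeq2, 101 with weighted limma-voom, 38 at 10% false discovery rate and between 10 and 152 with each library left out. The 152 were reached without knockout 3, and without controls 1 to 4 or knockout 2 the number was 11, 12, 10, 15 and 11. DESeq2's size factors gave 25 genes, 0 other Wnt genes and 2 inhibitors, and the run of label numbers as a block 24, 0 and 2. The causes were not tested. No paired analysis was possible because the labels of the 2 genotypes share 1 number only, that of control 4 and knockout 4. Depth limits Dkk2, Apcdd1 and Nkd2, which had at most 3 counts in each control.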
